A study of Homo sapiens with 2 samples.

Results

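The genes that copy DNA and make its building blocks were followed from untreated control cells to cells treated with SP11. The 39 genes were taken from a named list of replication and nucleotide synthesis genes, with the condition of 50 or more UMIs over both libraries, and all 39 listed genes met it. They are 39 of the 12128 genes that met the same condition among the 36601 in the files. UMIs are molecular tags, so each counts 1 captured molecule of RNA. By role, 5 genes license origins of replication, 12 belong to the helicase that opens DNA or load it, 13 belong to the polymerases and the fork, 5 make nucleotides, and 4 are the regulators E2F1, E2F2, CCNE1 and CCNE2. Apart from that minimum, no value of these libraries enters the rule. The list itself was, however, chosen with earlier results of these data known.

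Before S phase, the origin recognition complex, CDC6 and CDT1 load rings of MCM2 to MCM7 onto DNA, and geminin blocks loading once replication has begun. CDC45 and the GINS complex then join the ring to form the working helicase, and polymerases alpha, delta and epsilon copy the strands around the sliding clamp PCNA. Many of these genes carry binding sites for E2F factors in their promoters and are transcribed around the G1 to S transition, when cyclin E with its kinase phosphorylates RB and frees E2F.

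SP11 is described by the study as an inhibitor of the chaperone HSP90. The SP11 group had cells treated at 0.8 µM for 48 h, the control group had untreated cells, and each group had 1 library made by droplet single-cell RNA-seq. The label of both is MOLT4, a human leukemia line of the T-cell lineage, with no other genotype or agent given. Replicates that would check the differences below are therefore lacking, and the values set 1 library against the other, not treatment against no treatment. The filters left 1053 control and 852 SP11 cells, with 19375163 and 9498802 UMIs and medians of 17711 and 10489 UMIs per cell.

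The cells did not carry the RNA of their label. None of 25 T-lineage markers reached 10 CPM (the share of all UMIs in a library, on its customary scale) in either library, and their sums were 5.26 CPM (control) and 2.95 CPM (SP11). Of 20 granulocyte precursor and monocyte markers, 11 in control and 12 in SP11 reached 10 CPM, with sums of 2766 and 2316 CPM. Among 8 B-cell markers, 2 in each library did so, and none of 10 erythroid markers did. The libraries also had 114 cell barcodes in common. Without the cells of those barcodes, SP11 had 6 replication genes 1.5-fold or more up and 6 down, against 6 and 5 with them.

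As a share of all UMIs, replication and nucleotide synthesis RNA was slightly larger in SP11 cells, and its genes did not move together. The 39 genes summed to 3728 CPM in control cells and to 4269 CPM in SP11 cells. The log2 ratio was 0.20, with a 95% interval of 0.18 to 0.21 that covers counting error only, as does every interval here. Within that sum MCM7 alone went from 152 to 381 CPM, so much of the difference was that of 1 gene. Without DUT, the most abundant of the 39, the summed log2 ratio was again 0.20. The ratio was above 0 for 27 of 39, while it was above 0 for 32.6% of all measured genes. Their median log2 ratio of SP11 to control was 0.18, and the median of all measured genes was -0.35. A difference of 1.5-fold, used as a size and not as a call, was reached upward by MCM7, GINS3, CCNE2, E2F1, GINS2 and RRM1. It was reached downward by PRIM1, POLA1, ORC6, GINS1 and POLD3. These are 6 and 5 of 39, beside 10.7% of all measured genes upward and 38.4% downward. Set against the median gene instead of 0, 18 were higher by that size and 0 lower, beside 22.5% and 24.3% of all measured genes. Counting error alone could cover the difference for 7 of the 39, whose intervals held 0, and the intervals of 22 lay above 0 and those of 10 below it. Over all measured genes, 22.9% had an interval above 0 and 53.5% one below.

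The direction depended on the scale. An SP11 cell held on average 0.606 times the UMIs of a control cell. In UMIs per cell only 3 of the 39 genes were thus higher in SP11, and their median log2 ratio was -0.54. The median of all measured genes on that scale was lower still, at -1.07. MCM7 went from 2.80 to 4.24 UMIs per cell, CCNE2 from 0.282 to 0.306 and GINS3 from 0.129 to 0.154. By that measure 1 gene was higher by 1.5-fold or more and 18 were lower. TMM scaling, which centres the typical gene near 0, gave 18 higher, 0 lower and a median of 0.53, beside -0.006 for all measured genes. Shares of all measured genes at that size are not given for either scale. The number of genes above the median of all genes was 30 on each of these 3 scales. That is so by construction, since a change of scale moves the log2 ratio of every gene by the same amount. Less RNA per cell and a smaller library from each cell cannot be told apart here. All CPM ratios below are shares of the library.

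**Figure D1:**
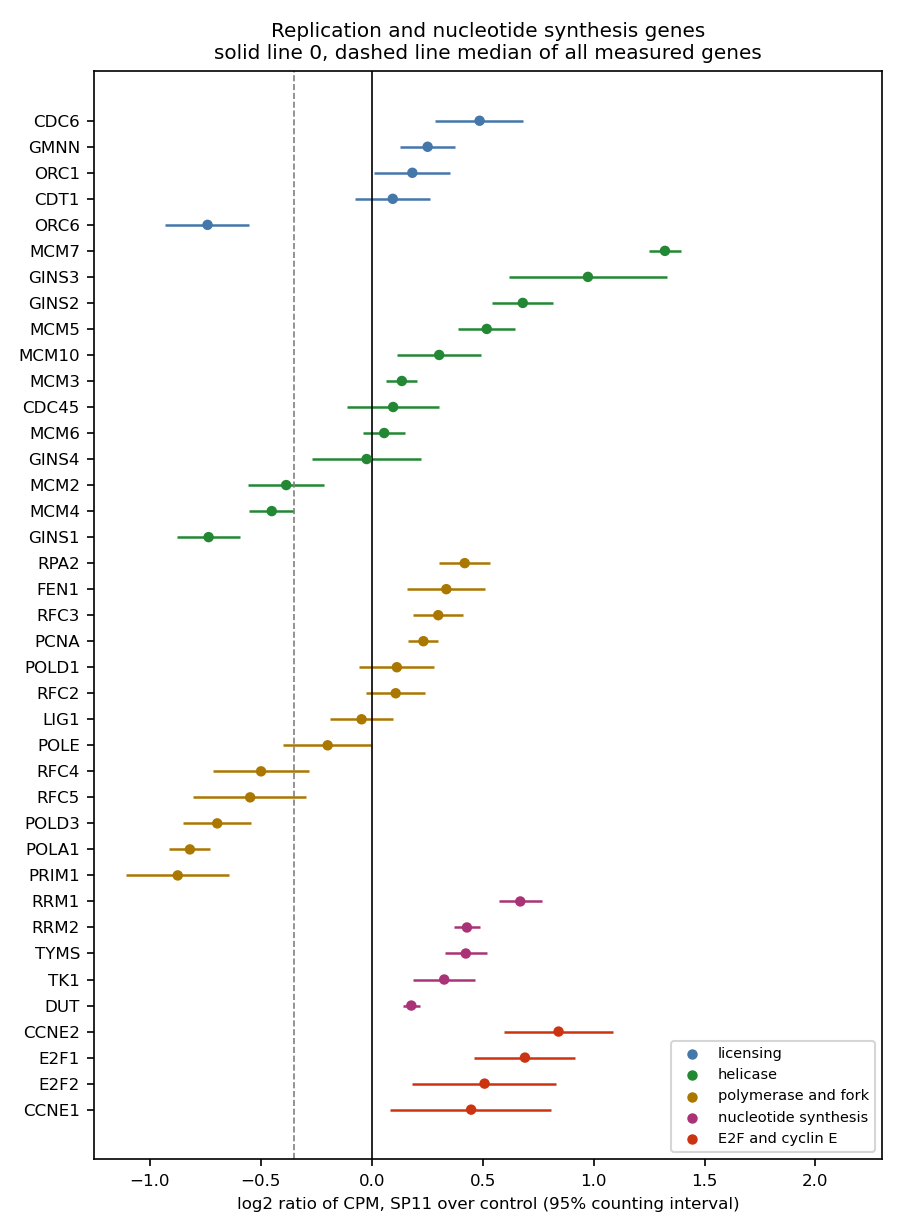
Each point gives the log2 CPM ratio of SP11 to control of 1 of the 39 genes, coloured by role, with 95% counting intervals (bars). MCM7 lies farthest to the right at 1.32 and PRIM1 farthest to the left at -0.87, and all 9 genes of the nucleotide and E2F with cyclin E groups lie to the right of 0, the solid line. A dashed line marks the median over every measured gene.

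The promoters of many of these genes hold E2F-like letters. RefSeq promoter sequences on GRCh38.p14 matched 33 of the 39 genes by symbol; MCM4, MCM5, GINS4, POLD3, RPA2 and CCNE2 had no entry. The 250 bases before the start were searched on both strands for TTTCCCGC, TTTCGCGC, TTTGCCGC and TTTGGCGC, of which TTTGGCGC and TTTCGCGC can overlap on opposite strands. At least 1 match was found in 13 of 33 promoters (39.4%), in 2.79% of the 35116 promoters of the table and in 4.67% of the 9106 promoters of measured genes. The same letters less the first T were found in 51.5% of the 33, in 10.9% of the table and in 17.9% of promoters of measured genes, and CCAAT in 54.5%, 32.0% and 35.3%. The windows below show the 3 genes with a match whose ratio was highest, MCM7, E2F1 and GINS2, then the 3 whose ratio was lowest, LIG1, POLE and POLA1, and MCM6, added because it held 4 matches. Capitals mark the match on either strand, with up to 20 bases on each side. MCM7 has 2 matches in its 250 bases, of which the one next to the start is shown.
MCM7: cggtcacgtggggggcgacgTTTCGCGCc
E2F1: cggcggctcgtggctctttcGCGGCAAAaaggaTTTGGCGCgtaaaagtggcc
GINS2: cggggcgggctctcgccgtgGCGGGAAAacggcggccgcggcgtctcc
LIG1: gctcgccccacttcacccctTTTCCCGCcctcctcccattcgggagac
POLE: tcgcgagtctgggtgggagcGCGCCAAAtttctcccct
POLA1: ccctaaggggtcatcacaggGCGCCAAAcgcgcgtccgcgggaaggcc
MCM6: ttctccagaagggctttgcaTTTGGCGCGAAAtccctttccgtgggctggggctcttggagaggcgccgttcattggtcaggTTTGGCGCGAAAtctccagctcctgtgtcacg

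Each window is written 5′ to 3′ on the strand of its gene. The MCM7 window is chr7:100101398-100101426 on the minus strand, the E2F1 window chr20:33686386-33686438 minus, the GINS2 window chr16:85688958-85689005 minus, the LIG1 window chr19:48170431-48170478 minus, the POLE window chr12:132687343-132687380 minus, the POLA1 window chrX:24693761-24693808 plus and the MCM6 window chr2:135876502-135876615 minus. They lie just upstream of the RefSeq start, and for MCM7, GINS2 and LIG1 wholly and for POLE largely inside the longer gene span of GENCODE 44. Genes with and without a match differed little in ratio, with medians of 0.23 over 13 genes and 0.18 over 20. MCM7 at 1.32 and POLA1 at -0.82 both held one.

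Among the licensing genes, CDC6 had the highest ratio and ORC6 the only one below 0. CDC6, the loader ATPase, went from 26.7 to 37.4 CPM (log2 ratio 0.49, 0.29 to 0.68). GMNN, which encodes geminin, lay at 72.4 and 86.2 CPM (log2 ratio 0.25). ORC1, the subunit of the origin recognition complex that is regulated over the cycle, went from 41.1 to 46.6 CPM (0.18). CDT1, the partner of CDC6, had 42.8 and 45.7 CPM, and the interval of its log2 ratio held 0 (-0.08 to 0.26). ORC6, a small subunit of the complex, went the other way from 53.1 to 31.8 CPM (-0.74, -0.93 to -0.55). The 5 genes had a median of 0.18 and a summed log2 ratio of 0.07 (-0.003 to 0.14). Over ORC1 to ORC6, with ORC2 to ORC5 from a list of other replication genes, 1 of 6 subunits had a ratio above 0 and the sum had a log2 ratio of -0.40 (-0.47 to -0.32).

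The helicase group held the gene with the highest ratio of all 39. MCM7, a subunit of the MCM ring whose introns also carry a microRNA cluster, went from 152 CPM (2951 UMIs) in the control library to 381 CPM (3616 UMIs) in the SP11 library, which is 2.50-fold or 1.32 on the log2 scale (1.25 to 1.39). With cells thinned to 4400 UMIs, which leaves out 90 control and 83 SP11 cells with fewer, 46.2% of 963 control cells and 79.6% of 769 SP11 cells had an MCM7 UMI. Without thinning, 83.1% of 1053 and 89.8% of 852 cells did. No cell type that lacks MCM7 was at hand to give a background share. The 5 other subunits of the same ring lay far below it. MCM5 had a log2 ratio of 0.52 (0.39 to 0.65), MCM3 of 0.14, MCM6 of 0.06, MCM2 of -0.39 and MCM4 of -0.45 (-0.55 to -0.35). MCM2 to MCM6 summed to 655 and 657 CPM, so the difference of the whole ring, 807 against 1038 CPM, was that of MCM7. No interval of the other 5 subunits overlapped that of MCM7. AP4M1, which overlaps MCM7 on the opposite strand, had 200 UMIs over both libraries.

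Genes that join or activate the ring were just as uneven. GINS3 went from 7.02 to 13.8 CPM (log2 ratio 0.97, 0.62 to 1.33) on 136 and 131 UMIs, and GINS2 from 51.1 to 81.9 CPM (0.68, 0.54 to 0.82). GINS4 had a ratio of -0.02 (-0.27 to 0.22), and GINS1 went from 90.3 to 54.2 CPM (-0.74, -0.88 to -0.59). These 4 proteins form 1 complex, and their summed CPM gave a log2 ratio of 0.01 (-0.08 to 0.10). MCM10, which helps to start unwinding, lay at 31.6 and 39.1 CPM (0.30), and CDC45, the helicase cofactor, at 28.9 and 30.8 CPM, with an interval that held 0. The 12 helicase genes had a median of 0.12, and 3 were at least 1.5-fold higher and 1 lower.

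**Figure D2:**
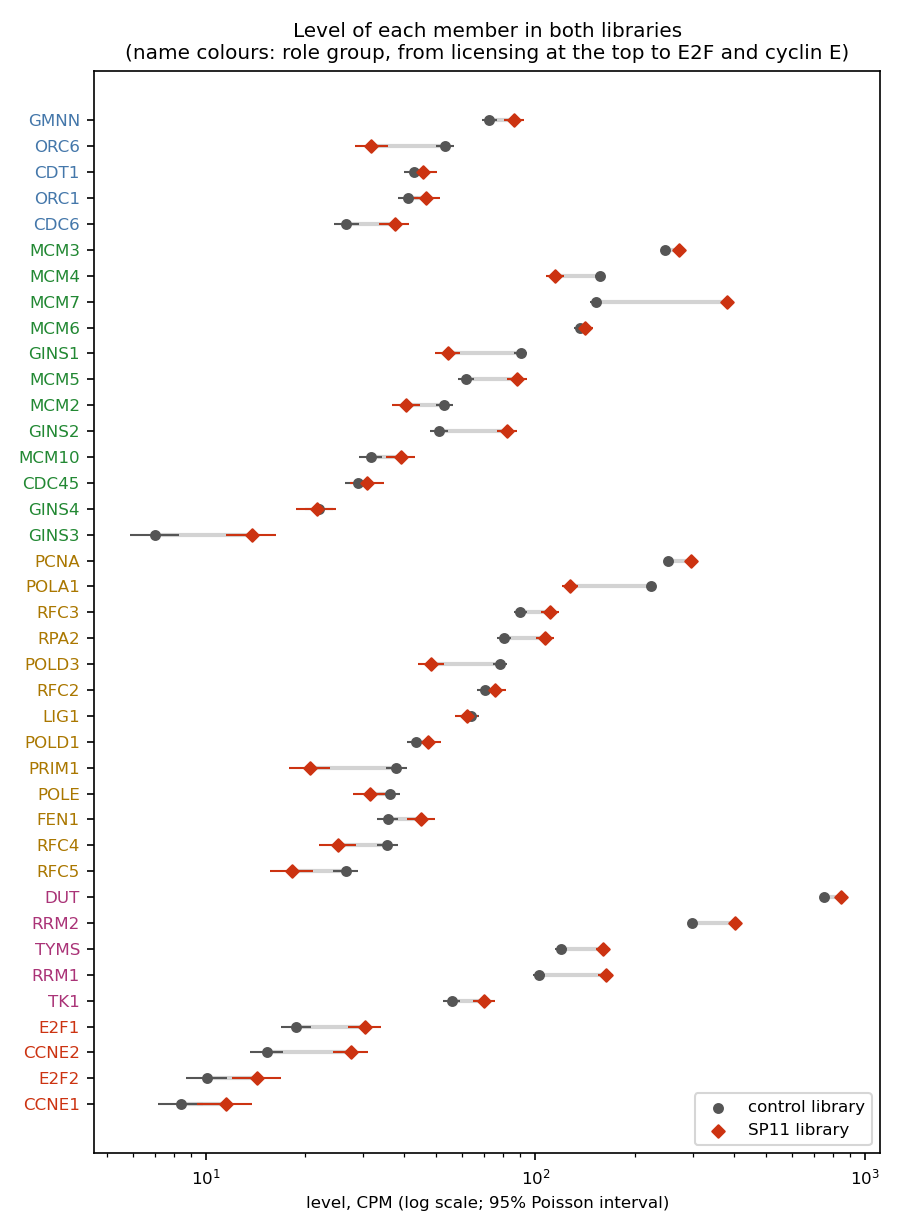
CPM of each gene on a log axis in the control library (grey circles) and the SP11 library (red diamonds), with 95% Poisson intervals and a grey bar between the libraries. The gap is widest for MCM7, at 152 and 381 CPM, and points left for PRIM1, from 37.8 to 20.6 CPM.

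Subunits of 1 polymerase often lay on different sides of 0. PRIM1 and POLA1, catalytic subunits of primase and polymerase alpha, which lay the first stretch of each strand, had the lowest ratios of the 39. PRIM1 went from 37.8 to 20.6 CPM (log2 ratio -0.87, -1.11 to -0.65) and POLA1 from 225 to 127 CPM (-0.82, -0.91 to -0.73). Of the 2 other subunits, PRIM2 had a log2 ratio of -0.87 and POLA2 of 0.03 (-0.15 to 0.21), and the 4 genes together of -0.75 (-0.81 to -0.68). With the trend with intronic length described below taken off, POLA1 turned to 0.20 and PRIM2 to 0.15, and the median of the 4 was 0.17. Polymerase delta copies the lagging strand. Its catalytic subunit gene POLD1 lay at 43.5 and 47.1 CPM, with an interval that held 0, and POLD3, an accessory subunit, at 78.1 and 48.2 CPM (-0.70, -0.85 to -0.55), which the same step turned to 0.14. POLE, the catalytic subunit of the leading-strand polymerase, had 36.1 and 31.5 CPM (-0.20). The histone-fold subunits of that enzyme, POLE3 and POLE4, which are no members and also serve chromatin complexes, had log2 ratios of 1.39 (1.29 to 1.49) and 1.29 (1.19 to 1.38), and POLE2 of -0.75.

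The clamp, its loader and the joining enzymes differed less. PCNA, the clamp, lay at 252 and 296 CPM (log2 ratio 0.23, 0.17 to 0.30). Among the clamp loader subunits, RFC3 had 90.1 and 111 CPM (0.30), RFC2 70.1 and 75.6 CPM, RFC4 35.6 and 25.2 CPM (-0.50) and RFC5 26.6 and 18.2 CPM (-0.55), and their sum gave 0.05 (-0.03 to 0.12). The loader genes thus lay on both sides of 0. RPA2, a subunit of the protein that coats single strands, went from 80.2 to 107 CPM (0.42, 0.30 to 0.53). FEN1, the nuclease that trims Okazaki fragments, had 35.6 and 45.0 CPM (0.34), and LIG1, which seals them, 63.8 and 61.8 CPM (-0.05, -0.19 to 0.10). Over the 13 genes the median was -0.05, 0 were at least 1.5-fold higher and 3 lower.

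Every nucleotide synthesis gene had a ratio above 0, with an interval that excluded 0. RRM1 and RRM2 encode the subunits of ribonucleotide reductase, which makes deoxynucleotides. RRM1 went from 103 to 163 CPM (log2 ratio 0.67, 0.57 to 0.77) and RRM2 from 299 to 403 CPM (0.43, 0.37 to 0.49). TYMS, thymidylate synthase, went from 120 to 161 CPM (0.42, 0.33 to 0.52). TK1, the salvage kinase for thymidine, had 55.7 and 69.9 CPM (0.33, 0.19 to 0.47), and DUT, which clears dUTP, 749 and 848 CPM (0.18, 0.14 to 0.22). In cells thinned to equal depth, an RRM1 UMI was found in 37.0% and 53.6% of cells and an RRM2 UMI in 58.7% and 74.1%. The median of the 5 genes was 0.42, against -0.30 in UMIs per cell. Among the 32 other nucleotide genes described below, 15 had a CPM ratio above 0.

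Some of these genes overlap other genes or have named processed copies. Same-strand genes overlap RFC3, POLD3, PRIM1 and FEN1. The overlapping gene of PRIM1 is NACA, with 33249 UMIs, and that of FEN1 is FADS2, with 1208. Genes on the opposite strand overlap 15 of the 39, TYMS among them with ENOSF1 (3063 UMIs). Named processed copies exist for 9 of the 39, with 8 copies of DUT and 3 each of PCNA, RRM2 and RPA2. What part of their UMIs is shared was not tested.

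As a share of the library, the 4 E2F and cyclin E genes were all higher in SP11. Most other E2F and RB family genes were not, and of all measured genes only 32.6% had a ratio above 0. E2F1, an activating E2F, went from 18.8 to 30.3 CPM on 364 and 288 UMIs (log2 ratio 0.69, 0.46 to 0.92), and E2F2 from 10.1 to 14.3 CPM (0.51, 0.18 to 0.83). CCNE2 went from 15.3 to 27.5 CPM (0.84, 0.60 to 1.09) and CCNE1 from 8.41 to 11.5 CPM (0.45, 0.08 to 0.81). Both genes encode cyclin E, the partner of CDK2 at the start of S phase. In UMIs per cell the log2 ratios were -0.032 for E2F1, -0.21 for E2F2, -0.27 for CCNE1 and 0.12 for CCNE2. The other replication genes, without E2F1 and E2F2, had a summed ratio of 0.19, below the 0.63 (0.44 to 0.81) of the summed E2F1 and E2F2.

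Of 11 other genes of the E2F and RB family, 10 were measured. Their median log2 ratio was -0.57, which is 0.76 below that of the 39 genes, beside -0.35 for all measured genes. At least 1.5-fold higher were 0 and lower 5, beside 10.7% and 38.4% of all measured genes. E2F8, a repressor that is itself made in S phase, went from 35.7 to 11.3 CPM (691 and 107 UMIs, -1.66, -1.97 to -1.37). E2F7, its closest relative, had 0 UMIs in both libraries, where 3 counts would be 0.155 CPM (control) and 0.316 CPM (SP11), the upper limits. E2F5, a repressor that works with the pocket proteins, had a log2 ratio of -1.32, and E2F4, which works likewise, of 0.50 (0.28 to 0.72). E2F3, the third activator, lay at 80.0 and 75.7 CPM (-0.08, -0.21 to 0.05), and E2F6 had -0.24. The pocket protein genes RB1, RBL2 and RBL1 had -0.89 (-0.98 to -0.81), -0.94 and -0.25. Of the dimer partners, TFDP1 was level at 165 and 169 CPM and TFDP2 went from 100 to 49.0 CPM (-1.03). These genes have long introns, with a median of 51286 intronic bases against 18030 for the 39 genes. With the trend with intronic length taken off, the family's median was 0.02, 5 of 10 lay above 0, RB1 turned to 0.12 and E2F3 to 0.49, and the distance to the 39 genes was 0.33.

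**Figure D3:**
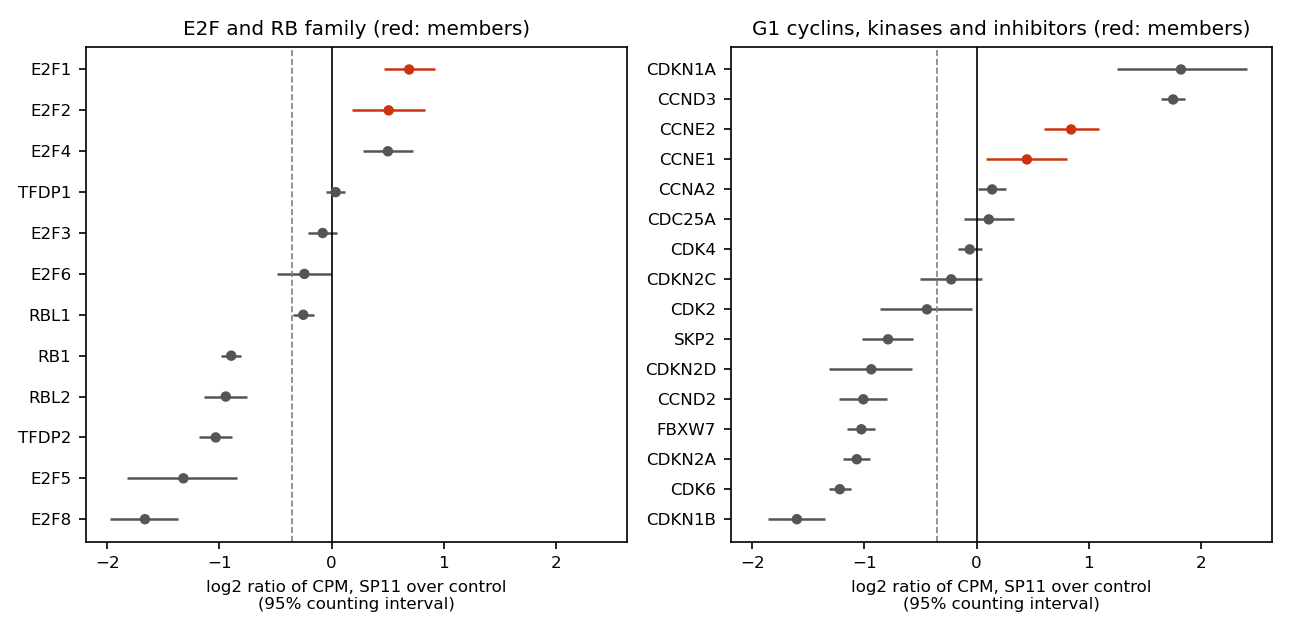
Log2 ratio of CPM, SP11 over control, with 95% counting intervals for the measured E2F and RB family genes (left) and the G1 cyclins, kinases and inhibitors (right), with the 4 replication regulators in red. E2F1 and E2F2 stand at the top of the left panel, while E2F8 at -1.66 stands at the bottom, and CDKN1A and CCND3 exceed 1.5 in the right panel.

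Of 17 further G1 genes, 14 were measured, with a median log2 ratio of -0.62. At least 1.5-fold higher were 2 and lower 7, beside 10.7% and 38.4% of all measured genes. CCND3, a cyclin D, went from 60.7 to 204 CPM (1.75, 1.65 to 1.86), while CDK6, a kinase that cyclin D activates, lay at -1.22 (-1.32 to -1.12). CCNA2, the S phase cyclin, lay at 0.14. The kinase inhibitors diverged. CDKN1A, which encodes p21, had 41 UMIs in control and 71 in SP11 (1.82, 1.25 to 2.41). CDKN1B, which encodes p27, went from 47.6 to 15.7 CPM (-1.60, -1.86 to -1.35). The ratios of CDKN2A, CDKN2D and CDKN2C were -1.07, -0.94 and -0.23, and the interval of the last held 0.

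Other genes of the same pathways were spread around 0, and like the 39 genes most lay above the median of all measured genes. Above that median were 68.2% of the measured other replication genes, 81.25% of the other nucleotide genes and 76.7% of the mitotic genes, beside 76.9% of the 39. Their summed log2 ratios were 0.05, 0.30 and 0.21, beside 0.20 for the 39. A place above the median gene was thus not particular to the 39. Of 45 other replication genes, 44 were measured, with a median log2 ratio of -0.07, 9 at least 1.5-fold higher and 7 lower. POLE3 and POLE4 were the highest and CDC7, the kinase that fires origins, the lowest at -1.36 (-1.64 to -1.10), followed by TICRR, another origin-firing factor, at -1.02. All 32 other nucleotide genes were measured, with a median of -0.03, 3 higher and 4 lower. SAMHD1, which breaks down deoxynucleotides, lay at 0.88 and NME2, a nucleoside diphosphate kinase, at 0.85, while the mitochondrial enzymes TK2 and DHODH lay at -1.20 and -0.76. The 30 mitotic genes had a median of 0.10, from 1.66 for CDC20 and 1.17 for BIRC5 to -0.67 for ASPM and -1.68 for CDC25C.

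The replication-dependent histones, whose RNA is made and kept in S phase, were lower in SP11 gene by gene, with 2 exceptions, HIST1H4C and HIST1H2AM, the latter named after its value was seen. Of 66 listed, 36 were measured, 1 was at least 1.5-fold higher and 34 were lower. HIST1H4C went from 712 to 1457 CPM (1.03, 1.00 to 1.07) and was 50.5% of histone UMIs in control and 88.9% in SP11. The sum of the others went from 698 to 182 CPM, and the sum with it from 1410 to 1639 CPM (0.22). HIST1H2AM had 116 and 60 UMIs, with an interval that held 0. HIST1H3B had 693 and 12 UMIs, a log2 ratio of -4.82, and HIST1H3C lay at -4.35, while HIST2H2AC, the next highest after HIST1H4C among those with 200 or more UMIs, lay at -1.16.

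Replication genes were highest in cells rich in histone RNA in both libraries. In each library, cells with 4400 or more UMIs were divided by scores that use no replication gene: the upper 25% by mitotic gene share were called mitosis-rich, as many of the other cells with the highest histone share histone-rich, and the rest the remaining cells. These classes are ranges of a score and not cell types, with 481, 241 and 241 control cells and 385, 192 and 192 SP11 cells in the remaining, histone-rich and mitosis-rich classes. Within 10% of the histone threshold lay 10 control and 36 SP11 cells, and within 10% of the mitotic threshold 51 and 112. The 39 genes were highest in the histone-rich class for 36 in control and 33 in SP11, and for 31 in both, beside 25% and 24.5% of all measured genes. With HIST1H4C left out of the score, 35 in control and 29 in SP11 were highest in the histone-rich class. Shares of all measured genes are not given for that score. It rests on histones with 13519 UMIs in control but only 1731 in SP11, so it was thinly sampled in SP11. TYMS was the gene that peaked in the mitosis-rich class of both libraries.

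The contrast between classes was smaller in SP11 than in control. In control the 39 genes summed to 3286 CPM in the remaining cells, 4905 CPM in histone-rich cells and 3224 CPM in mitosis-rich cells. In SP11 these sums were 3988, 5146 and 3882 CPM. The difference between libraries thus lay mainly outside the histone-rich class, where the log2 ratio of the sums was 0.07 (0.04 to 0.10), against 0.28 (0.25 to 0.31) in the remaining cells and 0.27 (0.23 to 0.30) in mitosis-rich cells. Of the role groups, the E2F and cyclin E genes had the highest log2 ratio in each class. It was 0.69 (0.50 to 0.89) in the remaining, 0.60 (0.37 to 0.82) in the histone-rich and 0.72 (0.32 to 1.11) in the mitosis-rich cells. The last value rests on 128 control and 95 SP11 UMIs. In the remaining cells the interval overlapped that of the nucleotide genes, and in mitosis-rich cells that of the helicase genes. The nucleotide genes differed more in the remaining cells, with 951 and 1411 CPM (0.57, 0.52 to 0.62), than in the other classes. The helicase genes did so in mitosis-rich cells, with 732 and 1115 CPM (0.61, 0.54 to 0.68). Most of that difference was MCM7, which alone went from 139 to 400 CPM there. The median log2 ratio of the helicase genes was 0.47 in mitosis-rich, 0.08 in the remaining and 0.004 in histone-rich cells. The classes were not alike in both libraries: the median mitotic share of the remaining cells was 1017 CPM for control against 2166 CPM for SP11, and the mitotic threshold lay at 3807 and 4861 CPM. The histone score rested mostly on HIST1H4C in SP11. The part of these differences in the ratios was not tested.

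**Figure D4:**
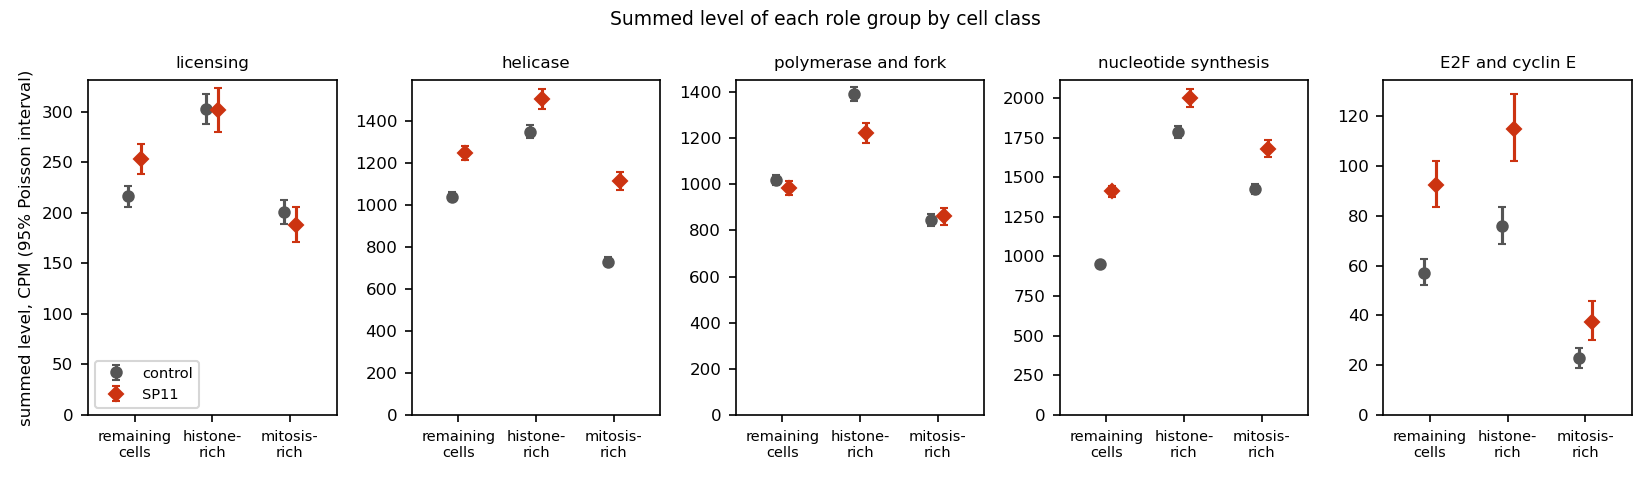
Summed CPM of each role group in the 3 cell classes of the control (grey circles) and SP11 (red diamonds) libraries, with 95% Poisson intervals. All 5 groups peak in the histone-rich class in both libraries, and the nucleotide group lies at 951 and 1411 CPM in the remaining cells.

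The ratio was above 0 in all 3 classes for 16 of the 39 genes and below 0 in all 3 for 10, beside 23.1% and 54.3% of all measured genes. MCM7 had log2 ratios of 1.34 in the remaining cells, 1.16 in histone-rich and 1.52 in mitosis-rich cells. POLA1 had -0.79, -0.89 and -0.79 in the same order. CCNE2, at 0.88 and 0.99 in the first 2 classes, was at -0.030 in mitosis-rich cells. The class medians over the 39 genes were 0.21, 0.04 and 0.23, beside -0.33, -0.37 and -0.27 for all measured genes.

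Replication RNA per cell was also read at equal depth. In cells thinned to 4400 UMIs, a control cell held a median of 15 UMIs of the 39 genes (quartiles 11 and 21) and an SP11 cell 18 (15 and 23). A UMI of E2F1 or E2F2 was seen in 127 of 963 control cells (13.2%) and in 136 of 769 SP11 cells (17.7%). Those control cells held on average 18.3 UMIs of the other replication genes, and control cells without one held 15.5. In SP11 the values were 20.1 and 18.5. Cells of 1 library are not replicates, so these means are a description.

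Ratios in these libraries went with intronic length, and the lowest replication genes differ in it. Over 12094 measured genes with an annotation, the Spearman correlation of the log2 ratio with intronic length was -0.34, and over the 39 genes it was -0.18. Genes of 1 library share its depth and base composition, so both are descriptions. The 13 genes with the shortest introns had a median log2 ratio of 0.25 and the 13 with the longest 0.10. POLA1 spans 287567 intronic bases and POLD3 169766, and against the median of genes of like length they lay at 0.20 and 0.14. ORC6 and PRIM1, with 4443 and 18628 intronic bases, stayed low at -0.76 and -0.71. Relative to that trend, 31 of the 39 genes were above 0, 11 at least 1.5-fold higher and 2 lower. The median of all measured genes on this scale was 0.0005, since the trend is itself a median of genes of like length. Of the 44 measured other replication genes, 35 lay above the trend, 11 at least 1.5-fold higher and 2 lower. Shares of all measured genes at that size are not given for this scale. Against the trend GINS3, with 105960 intronic bases, lay at 1.56. Intronic bases were counted over the whole annotated gene span, and shorter transcripts were not tested. A shorter length would lower the trend-corrected values of long genes such as GINS3 and POLD3. Genes with about 52633 intronic bases had a median of -0.47, above the -0.70 of POLD3, so its sign depends on the length used. Cell Ranger 7.1.0, which made the files, counts intronic reads by default; the setting, not given in the sources used here, was not tested.

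**Figure D5:**
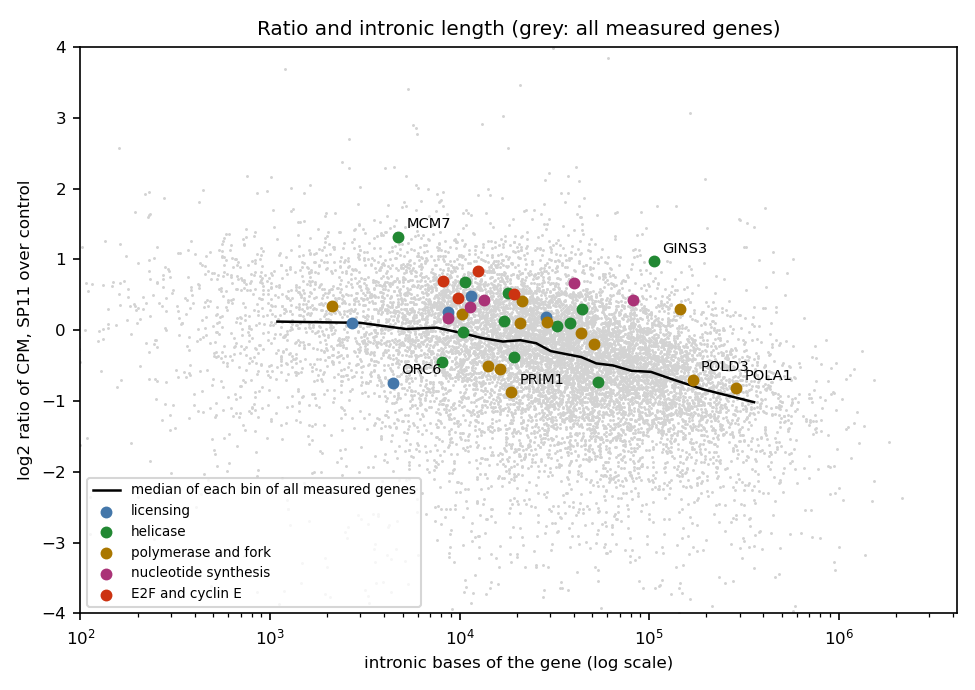
Log2 ratio of CPM, SP11 over control, against the intronic bases of each gene on a log axis, for the 39 genes (coloured by role) and all other measured genes with introns (grey, cropped at 4 and -4), with the median of each of 20 bins of all genes as a line. The line slopes down with length, POLA1 and POLD3 lie just above it, and PRIM1 and ORC6 lie below it.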

How the data were processed

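For each library the authors deposited a matrix of raw UMI counts per gene and barcode. Per the file headers, Cell Ranger 7.1.0 made it, and GRCh38 (hg38) is the build in the submitters' processing notes. Barcodes with at least 200 genes and at most 20% mitochondrial UMIs were kept, after the study's methods, which removed 23 control and 12 SP11 barcodes. The study itself retained fewer cells of both libraries, chiefly of control, and its methods name no other step. Scrublet in scanpy 1.11.5 called 43 and 24 doublets, which were kept.

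UMIs were summed per gene and library and divided by all UMIs of kept cells (CPM). Ratios carry exact Clopper-Pearson intervals of the split of UMIs, levels exact Poisson intervals, at 95%. Limits for 0 UMIs are 3 counts. With 1 library per group there was no test and no p-value. The ratio code was tested on simulated data. Intronic lengths came from the whole gene span in GENCODE 44, and promoters from RefSeq.

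The members and lists were chosen with earlier results of these data known. Named were all members, all E2F and RB family genes, and from each other list the 2 highest and 2 lowest ratios among genes with 200 or more UMIs, with kinase inhibitors of 50 or more. The other subunits of the polymerases and HIST1H2AM were named after their values were seen. Marker lists are given as counts only. Subunit sums were chosen after the values were seen. Alternatives covered scaling with edgeR 4.0.16 (TMM) and DESeq2 1.42.0 size factors, filters, thinning and class limits. Values without shared barcodes, in cells with 4400 or more UMIs, within each class and with a histone score without HIST1H4C were added after seeing the data.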

Additional observations from a re-analysis of the deposited data

How the results depend on the processing

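With 1 library per group and no test, only values could be compared between settings. No paired analysis was possible because each group has 1 library. Genes at least 1.5-fold higher numbered 6 on the CPM scale, 18 with TMM, 19 with DESeq2 size factors, 1 in UMIs per cell, 11 with the intronic length trend subtracted and 10 within the mitosis-rich class. Genes at least 1.5-fold lower numbered 5, and 0 with TMM, 0 with DESeq2 size factors, 18 in UMIs per cell and 2 with the trend subtracted. The median of all measured genes was -0.35 on the CPM scale, -0.006 with TMM, 0.01 with DESeq2 size factors and -1.07 in UMIs per cell. It was 0.0005 with the trend subtracted and -0.27 within the mitosis-rich class. Shares of all measured genes at 1.5-fold are not given for settings other than CPM. Relative to the median gene, 18 higher became 11 with the trend subtracted, and 0 lower became 1 with a minimum of 200 UMIs, 2 with the trend subtracted, 2 within the histone-rich class and 2 within the mitosis-rich class. The median of the 39 genes moved from 0.18 to 0.53 with TMM, 0.55 with DESeq2 size factors and -0.54 in UMIs per cell. Its distance to the E2F and RB family median moved from 0.76 to 0.33 with the trend subtracted. In UMIs per cell the log2 ratios of GINS2, RRM1 and E2F1 turned to -0.042, -0.053 and -0.032. Subtracting the trend turned POLA1 to 0.20, POLD3 to 0.14 and RB1 to 0.12, and CCNE2 was at -0.030 within the mitosis-rich class. The trend values rest on intronic length over the whole annotated gene span, and shorter transcripts were not tested. Scaling moves every gene by 1 amount, so it leaves the differences between genes as they were. Depth limits GINS3, CCNE1 and E2F2 most, since they have the fewest UMIs of the 39.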
